A study of Caenorhabditis elegans with 10 samples.

Results

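The cytochrome P450 family was examined in whole C. elegans larvae of wdr-23 mutants and of the wild type. Its members were the genes whose symbol is cyp followed by a number and that had a probe set of their own on an Affymetrix C. elegans array, which gave 73 of the 17118 genes so represented. Each gene was read on its brightest probe set, by mean signal over all arrays. The 10 arrays held 3 groups. They were wdr-23(tm1718) mutants fed skn-1 RNAi bacteria (n = 3, called skn-1 RNAi mutants below), wdr-23(tm1718) mutants fed control RNAi bacteria (n = 4, control RNAi mutants), and wild-type N2 animals fed control RNAi bacteria (n = 3). All animals were grown from synchronised first-stage larvae until most had reached the L4 stage, each sample pooled many worms, and RNA was taken from the whole animal. The sample labels name the allele tm1718 and the series description names tm1817, and the sources used here do not settle which is right. WDR-23 is a substrate receptor that marks the transcription factor SKN-1 for degradation, and SKN-1 turns on detoxification genes. In these whole-animal samples, fewer cells of a type and less RNA per cell cannot be told apart. The effect of skn-1 RNAi was read only in the mutant, and N2 animals with skn-1 RNAi were not analysed here.

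Cytochrome P450 enzymes carry a heme group and insert an oxygen atom into a substrate, with electrons delivered by a P450 reductase, which emb-8 encodes in the worm, and in some reactions by cytochrome b5. In C. elegans some members are induced by foreign chemicals and act in drug and toxin oxidation, mainly in the intestine. Others make lipid signals from polyunsaturated fatty acids, contribute to the lipid layer of the eggshell, or, like DAF-9, make steroid hormones. SKN-1 is best known for inducing antioxidant enzymes and conjugating enzymes, the latter of which act on products of P450 oxidation.

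Signals were linear and scaled to a common level on each array, and array medians ran from 113 to 139.7. The labels call the arrays biological replicates. The skn-1 probe set gave 257 ± 27.996 in skn-1 RNAi mutants, 474 ± 70.1 in control RNAi mutants and 454 ± 68.7 in N2 (SD), so it was lower in skn-1 RNAi mutants than in control RNAi mutants (log2 change -0.83 ± 0.14, adjusted p = 7.08e-04) and than in N2 (-0.77 ± 0.15, adjusted p = 0.00577). The wdr-23 probe set gave 902 ± 18.6 in skn-1 RNAi mutants, 3259 ± 453 in control RNAi mutants and 865 ± 151 in N2. It was higher in control RNAi mutants than in N2 (log2 change 1.89 ± 0.13, adjusted p = 1.14e-08). The sources used here do not place this probe set inside or outside the deletion, so it does not check the genotype. Changes are differences of log2(signal + 19), given with their SE and with limma p-values adjusted over all 15783 probe sets tested. A gene was called at an adjusted p under 0.05.

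Of the 73 P450 genes, 42 were bright enough to test and 31 were too dim. Called changes ranged in size from 1.29-fold to 2.61-fold on the scale of signal + 19, which understates the ratios of the signals themselves. In control RNAi mutants against N2, 7 of the 42 tested genes were higher (16.7%) and 8 were lower (19.0%). Over all 12061 genes tested, 18.9% were higher and 10.2% were lower in that comparison, so the P450 share was near the background for higher genes and above it for lower genes, a difference that was not tested. The genes that rose were cyp-23A1, cyp-37B1, cyp-13A10, cyp-32A1, cyp-32B1, cyp-34A9 and cyp-31A1. Those that fell were cyp-34A8, cyp-31A5, cyp-25A1, cyp-14A5, cyp-33E2, cyp-25A2, cyp-36A1 and cyp-33C4.

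In skn-1 RNAi mutants against control RNAi mutants, 4 of the 42 P450 genes were higher (9.52%) and 9 were lower (21.4%), beside 9.94% and 13.1% of all genes. The fallen genes were cyp-13B1, cyp-35C1, cyp-13A10, cyp-37B1, cyp-32B1, cyp-13A5, cyp-32A1, cyp-34A9 and cyp-31A1, and the risen ones cyp-25A1, cyp-34A8, cyp-31A5 and cyp-14A5. In skn-1 RNAi mutants against N2, 0 were higher and 3 were lower (7.14%), namely cyp-29A3, cyp-13B1 and cyp-36A1, beside 4.12% higher and 2.55% lower among all genes. At an unadjusted p under 0.05 that last comparison held 1 higher and 7 lower P450 genes. The share of all genes at that threshold was not computed, and the shares above, at adjusted p, are no background for these counts. The 3 comparisons share arrays in pairs, so their calls are given side by side and are not independent of each other.

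The median log2 change of the tested P450 genes was 0.03 in control RNAi mutants against N2, where that of all genes was 0.03. It was -0.16 between skn-1 RNAi and control RNAi mutants, where all genes had -0.02, and -0.12 between skn-1 RNAi mutants and N2, where all genes had 0.03. Changes of P450 genes thus ran in both directions in the first comparison. The median size of change, regardless of sign, was 0.35 for P450 genes and 0.27 for all genes in that comparison. The split between directions depended on scaling. With quantile normalization 3 P450 genes were higher and 11 lower (26.2%) in control RNAi mutants against N2, where 12.3% of all tested probe sets were higher and 12.4% lower. With median centring 3 were higher and 13 lower (31%), where 29.2% of all probe sets were lower, so the lower share was then near that of all probe sets. Between skn-1 RNAi and control RNAi mutants the split was 5 higher and 5 lower with quantile normalization, beside 10.9% and 10.3% of all probe sets. With median centring it was 8 higher (19.0%) and 5 lower (11.9%), beside 21.9% and 8.29% of all probe sets. Against N2, skn-1 RNAi mutants had 0 higher and 4 lower with quantile normalization, where 2.89% and 2.62% of all probe sets were called, and 0 and 5 with median centring, where 3.02% and 3.26% were. Median centring itself moved the median of all tested probe sets to -0.19, 0.14 and -0.03 in the 3 comparisons, in the order given above. Single arrays also moved the counts. Without N2 replicate 1, N2 replicate 2 or control RNAi replicate 3, 3 genes were higher in control RNAi mutants, and without control RNAi replicate 4, 4 were. Of all tested probe sets, 12.4%, 15.1%, 15.5% and 15.5% were higher without these arrays, in that order, beside 17.4% with all arrays. Without skn-1 RNAi replicate 3, 5 genes rather than 9 were lower in skn-1 RNAi than in control RNAi mutants. Of all probe sets, 9.4% rather than 12.6% were then lower.

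**Figure D1:**
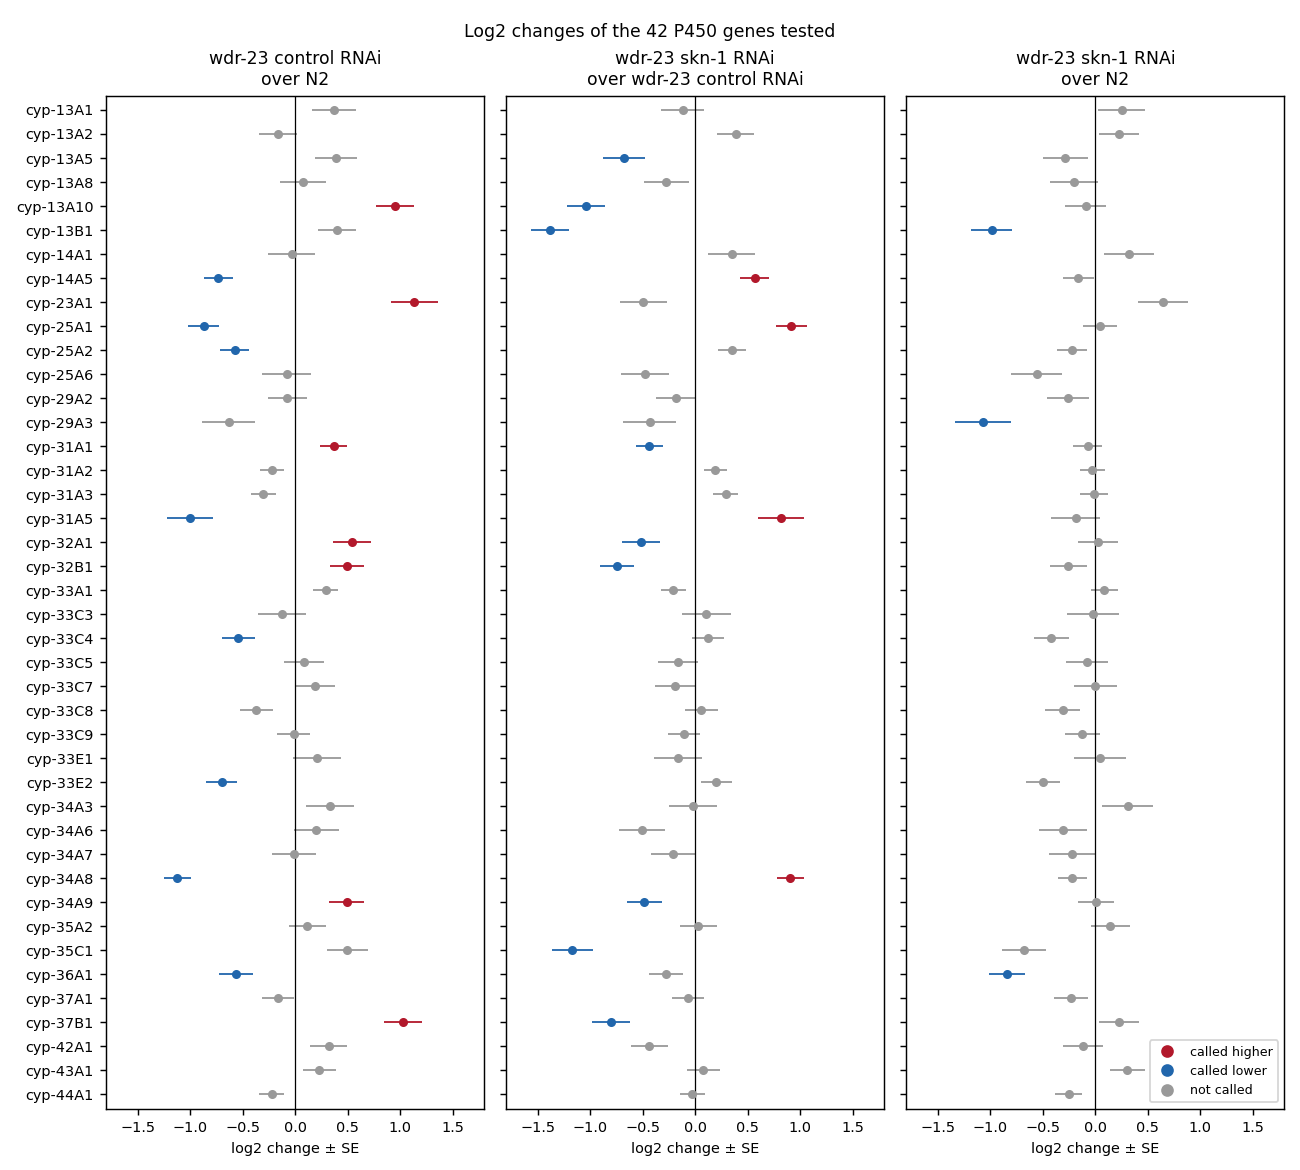
Log2 changes (points) with SE (lines) of the 42 P450 genes tested, with control RNAi mutants over N2 on the left, skn-1 RNAi over control RNAi mutants in the middle and skn-1 RNAi mutants over N2 on the right; red marks genes called higher, blue genes called lower and grey genes not called. In the left panel 7 genes lie to the right in red and 8 to the left in blue, and in the right panel 3 are coloured, all of them blue.

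Markers of the tissues in these whole animals were also called in these comparisons. Over all genes tested, 18.9% were higher and 10.2% lower in control RNAi mutants against N2. The shares were 9.94% and 13.1% in skn-1 RNAi against control RNAi mutants, and 4.12% and 2.55% in skn-1 RNAi mutants against N2. They stand beside the marker counts below, and no difference from them was tested. The summed signal of 10 intestinal markers ran from 43252 to 47592 in skn-1 RNAi mutants, 49111 to 55058 in control RNAi mutants and 47703 to 54465 in N2, and 3 higher and 2 lower of 10 markers were called between control RNAi mutants and N2. Epidermal markers summed to 5359.7 to 5563 in skn-1 RNAi mutants, 6223 to 8102 in control RNAi mutants and 4970.5 to 5129 in N2, with 5 higher and 1 lower of 7 called. Oocyte markers summed to 30479 to 33495 in skn-1 RNAi mutants, 22269 to 27286 in control RNAi mutants and 28967 to 34028 in N2, with 0 higher and 6 lower of 8 called, and yolk protein genes to 50522 to 64101 in skn-1 RNAi mutants, 40132 to 41511 in control RNAi mutants and 48062 to 61133 in N2, with 0 higher and 4 lower of 5 called. The epidermal sums of control RNAi mutants lay above those of both other groups, and their oocyte and yolk sums lay below. Between control RNAi mutants and N2, markers called were 3 higher and 0 lower of 8 for sperm, 2 higher and 0 lower of 8 for muscle, 2 higher and 0 lower of 8 for neurons and 1 higher and 0 lower of 6 for the pharynx. Between skn-1 RNAi and control RNAi mutants the calls were 2 higher and 5 lower of 10 for the intestine, 1 higher and 5 lower of 7 for the epidermis, 4 higher and 0 lower of 8 for oocytes, 4 higher and 0 lower of 5 for yolk, 0 higher and 4 lower of 6 for the pharynx, 0 higher and 2 lower of 8 for neurons, 0 higher and 1 lower of 8 for muscle and 0 higher and 1 lower of 8 for sperm. Pharyngeal markers summed to 2895 to 3139 in skn-1 RNAi mutants, 4188 to 4499 in control RNAi mutants and 3449 to 4215 in N2, so the skn-1 RNAi mutants lay below both other groups, and neuronal markers to 5220.3 to 5611 in skn-1 RNAi mutants, 6124 to 6836 in control RNAi mutants and 5064 to 5667 in N2. Between skn-1 RNAi mutants and N2 the calls were 1 higher and 3 lower of 10 for the intestine, 1 higher and 0 lower of 7 for the epidermis, 0 higher and 1 lower of 6 for the pharynx, 0 higher and 1 lower of 8 for muscle and 1 higher and 0 lower of 8 for sperm, with 0 called for neurons, oocytes and yolk. Each marker list had 0 genes with all group means at or below the pseudocount. The part of tissue makeup in the P450 results was not tested.

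The cyp-13, cyp-25 and cyp-43 genes are the members related to vertebrate drug-oxidising P450s of the CYP3 type. Of these, 1 cyp-13 gene, cyp-13A10, was called higher in control RNAi mutants than in N2, and cyp-25A1 and cyp-25A2 were called lower. A probe set shared by 2 cyp-25A genes had a log2 change of 0.34 there and was not called (adjusted p = 0.109). cyp-13A10 had signals of 51.9, 54.8 and 68.3 in skn-1 RNAi mutants, 175, 110.3, 158 and 122 in control RNAi mutants, and 50.96, 76.7 and 63.5 in N2. Every control RNAi mutant array lay above the other groups, which overlapped each other. The gene was higher in control RNAi mutants than in N2 (log2 change 0.95 ± 0.18, adjusted p = 0.00107), lower in skn-1 RNAi than in control RNAi mutants (-1.04 ± 0.18, adjusted p = 6.85e-04), and not called between skn-1 RNAi mutants and N2 (-0.09 ± 0.19, adjusted p = 0.87). cyp-13B1 had signals of 85.1, 110.0 and 61.2 in skn-1 RNAi mutants, 277, 202, 257 and 265 in control RNAi mutants, and 179, 149 and 233 in N2. Here the skn-1 RNAi mutants were low, below every array of the other groups, while control RNAi mutants and N2 overlapped. Its log2 change was -1.38 ± 0.18, adjusted p = 4.20e-05 in skn-1 RNAi against control RNAi mutants, the largest fall of any P450 gene tested in that comparison, and -0.99 ± 0.19, adjusted p = 0.00506 in skn-1 RNAi mutants against N2. Between control RNAi mutants and N2 it was not called (0.40 ± 0.18, adjusted p = 0.115). A dimmer probe set of cyp-13B1 averaged 49.4 ± 8.36 in skn-1 RNAi mutants, 167 ± 20.01 in control RNAi mutants and 130.4 ± 20.5 in N2 (SD), with the same calls.

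cyp-13A5 had signals of 43.9, 40.6 and 27.6 in skn-1 RNAi mutants, 50.3, 63.6, 80.6 and 92.6 in control RNAi mutants, and 56.3, 39.6 and 52.97 in N2. Its skn-1 RNAi arrays lay below the control RNAi mutant arrays and overlapped N2. It was lower in skn-1 RNAi than in control RNAi mutants (log2 change -0.68 ± 0.20, adjusted p = 0.0236) and not called in control RNAi mutants against N2 (0.39, adjusted p = 0.158). The cyp-13A5 call of skn-1 RNAi over control RNAi mutants ended without any 1 of skn-1 RNAi replicate 3 and control RNAi replicates 3 and 4 (log2 -0.55 to -0.62), and with quantile normalization and with median centring (log2 -0.53). The other 3 tested cyp-13A genes, cyp-13A1, cyp-13A2 and cyp-13A8, were called in 0 comparisons. With quantile normalization or median centring, cyp-13A2 was called higher in skn-1 RNAi than in control RNAi mutants (0.53 in each). cyp-13A7, an inducible member studied for drug responses, was not tested, with signals of 7.87, 8.08 and 5.91 in skn-1 RNAi mutants, 29.1, 7.13, 5.13 and 7.67 in control RNAi mutants, and 3.28, 6.45 and 7.001 in N2. A single control RNAi mutant array stood above the others there.

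The neighbouring genes cyp-25A1 and cyp-25A2 were lower in control RNAi mutants than in N2. cyp-25A1 had signals of 166, 140.3 and 180.5 in skn-1 RNAi mutants, 64.96, 84.8, 70.7 and 88.1 in control RNAi mutants, and 165, 166 and 138 in N2. All 4 control RNAi mutant arrays lay below the rest, and the other groups overlapped. Its log2 change was -0.87 ± 0.15, adjusted p = 4.95e-04 in control RNAi mutants against N2, 0.92 ± 0.15, adjusted p = 4.45e-04 in skn-1 RNAi against control RNAi mutants, and 0.04 ± 0.16, adjusted p = 0.932 in skn-1 RNAi mutants against N2. cyp-25A2 had signals of 466, 477 and 583 in skn-1 RNAi mutants, 412, 420.2, 369 and 371 in control RNAi mutants, and 532, 548 and 719 in N2. Again the control RNAi mutants were lowest on every array, and the fall against N2 was -0.58 ± 0.13, adjusted p = 0.0048. The difference between skn-1 RNAi and control RNAi mutants did not pass the test for cyp-25A2 (0.35 ± 0.13, adjusted p = 0.0699), and was called with median centring (0.50). cyp-25A6 was called in 0 comparisons, with log2 changes of -0.08 in control RNAi mutants against N2 and -0.48 in skn-1 RNAi against control RNAi mutants. Without skn-1 RNAi replicate 2, that last change was called at -0.74. cyp-43A1 averaged 572 ± 50.4 in skn-1 RNAi mutants, 551 ± 127 in control RNAi mutants and 459.6 ± 44.4 in N2 (SD) and was called in 0 comparisons, with log2 changes of 0.23, 0.08 and 0.31 in the same order of comparisons as above.

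The cyp-14, cyp-33, cyp-34, cyp-35 and cyp-36 genes are related to vertebrate P450s of the CYP2 type, and this is the largest branch in the worm. cyp-34A8 showed the largest fall of the tested members in control RNAi mutants against N2, and its immediate neighbour cyp-34A9 rose. Signals of cyp-34A8 were 316, 278 and 254 in skn-1 RNAi mutants, 148, 144, 143 and 132 in control RNAi mutants, and 320.5, 309.5 and 363 in N2. Control RNAi mutants lay between 132 and 148, below every array of the other groups. The log2 change was -1.12 ± 0.13, adjusted p = 5.86e-06 in control RNAi mutants against N2, 0.90 ± 0.13, adjusted p = 9.32e-05 in skn-1 RNAi against control RNAi mutants, and -0.22 ± 0.14, adjusted p = 0.429 in skn-1 RNAi mutants against N2. cyp-34A9, a gene known to act downstream of the insulin pathway factor DAF-16, had signals of 54.8, 74.9 and 51.9 in skn-1 RNAi mutants, 84.1, 85.4, 95.5 and 101 in control RNAi mutants, and 63.1, 51.9 and 64.4 in N2. The high group for this gene was the control RNAi mutants. It was higher in control RNAi mutants than in N2 (log2 change 0.49 ± 0.16, adjusted p = 0.0354) and lower in skn-1 RNAi than in control RNAi mutants (-0.48 ± 0.16, adjusted p = 0.0432). The cyp-34A9 call of control RNAi mutants over N2 ended without any 1 of control RNAi replicates 3 and 4 and N2 replicates 1, 2 and 3 (log2 0.42 to 0.53), and with no brightness filter, with quantile normalization and with median centring (log2 0.29 to 0.49). The cyp-34A9 call of skn-1 RNAi over control RNAi mutants ended without any 1 of skn-1 RNAi replicates 1 and 3 and control RNAi replicates 1, 2, 3 and 4 (log2 -0.41 to -0.52), and with no brightness filter, with quantile normalization, with median centring and with only the compared groups in the fit (log2 -0.33 to -0.48).

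Both genes sit in a run of 6 neighbouring P450 genes, cyp-34A5 to cyp-34A10, in the RefSeq gene order. The other members of the run were cyp-34A6 and cyp-34A7, called in 0 comparisons, and cyp-34A5 and cyp-34A10, not tested. Log2 changes in control RNAi mutants against N2 were 0.20 for cyp-34A6 and -0.01 for cyp-34A7. Of the 73 genes, 35 lie in 10 such runs of 2 to 7 neighbours. The longest, cyp-13A2 to cyp-13A8, held 1 called gene, cyp-13A5, and its members cyp-13A3, cyp-13A4, cyp-13A6 and cyp-13A7 were not tested. The run of cyp-33C4, cyp-33C3, cyp-33C5, cyp-33C6 and cyp-33C7 also held 1, cyp-33C4, with cyp-33C6 not tested. The run of cyp-35A5, cyp-35B1, cyp-35B2 and cyp-35B3 held 0, all of its members being untested. In the run of cyp-25A1 and cyp-25A2 both genes were called. In other runs cyp-33E2 and cyp-32B1 were called beside the untested cyp-33E3 and cyp-33C12. No gene was called in the runs of cyp-35A1 and cyp-35A2, of cyp-34A1 and cyp-34A2, and of cyp-14A1 to cyp-14A3. Among all P450 genes, 19 of the 42 tested were called in a comparison. The share of all genes called in any comparison was not computed, so this count has no background beside it.

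cyp-35 and cyp-14 genes include the P450s most strongly induced by foreign chemicals in the worm. cyp-35C1 had signals of 32.02, 52.1 and 20.7 in skn-1 RNAi mutants, 98.3, 97.02, 102 and 99.2 in control RNAi mutants, and 51.1, 74.5 and 70.5 in N2. The control RNAi mutant arrays were high and close together, at 97.02 to 102, and the skn-1 RNAi mutant arrays low. It fell by 1.17 ± 0.20 (log2 scale, adjusted p = 4.70e-04) in skn-1 RNAi against control RNAi mutants. The other differences did not pass the test, at 0.50 ± 0.20, adjusted p = 0.069 for control RNAi mutants against N2 and -0.68 ± 0.21, adjusted p = 0.067 for skn-1 RNAi mutants against N2. The difference of control RNAi mutants from N2 was called higher with a pseudocount of 50 (0.38), and at 0.50 with only the compared groups in the fit and without skn-1 RNAi replicate 2 or 3. That of skn-1 RNAi mutants from N2 was called lower with median centring (-0.73) and without skn-1 RNAi replicate 2 (-0.90). A dimmer, untested probe set of this gene averaged 19.9 ± 11.9 in skn-1 RNAi mutants, 48.2 ± 15.8 in control RNAi mutants and 18.4 ± 3.26 in N2 (SD). cyp-35A2, which is known for its part in fat storage, was called in 0 comparisons, with signals of 225, 266 and 264 in skn-1 RNAi mutants, 269, 271, 260.3 and 192 in control RNAi mutants, and 160.4, 280.3 and 254 in N2. Its log2 changes were 0.12, 0.03 and 0.14 for control RNAi mutants against N2, skn-1 RNAi against control RNAi mutants, and skn-1 RNAi mutants against N2. cyp-35B1, also placed downstream of DAF-16, was not tested, with signals from 0.813 to 2.16 over all 10 arrays.

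cyp-14A5 had signals of 195, 205 and 165 in skn-1 RNAi mutants, 127, 115, 104.4 and 139 in control RNAi mutants, and 201, 217 and 221 in N2. All 4 control RNAi mutant arrays were below the other groups. The gene was lower in control RNAi mutants than in N2 (log2 change -0.73 ± 0.14, adjusted p = 0.00106) and higher in skn-1 RNAi than in control RNAi mutants (0.57 ± 0.14, adjusted p = 0.00841). It was not called between skn-1 RNAi mutants and N2 (-0.16 ± 0.15, adjusted p = 0.628). cyp-14A1, tested, was called in 0 comparisons, with log2 changes of -0.03 in control RNAi mutants against N2 and 0.35 in skn-1 RNAi against control RNAi mutants. cyp-14A3 averaged 29.3 ± 9.38 in skn-1 RNAi mutants, 26.8 ± 4.58 in control RNAi mutants and 30.8 ± 16.4 in N2 (SD) and was too dim to test, as were cyp-14A2 and cyp-14A4.

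cyp-33E2 makes oxygenated eicosanoids from polyunsaturated fatty acids in the pharynx. Its signals were 88.01, 119.5 and 106 in skn-1 RNAi mutants, 92.2, 91.4, 90.3 and 78.9 in control RNAi mutants, and 141, 170.5 and 153 in N2. Both mutant groups lay below every N2 array. The fall in control RNAi mutants against N2 was -0.70 ± 0.15, adjusted p = 0.00239, and the difference between skn-1 RNAi mutants and N2 did not pass the test (-0.50 ± 0.16, adjusted p = 0.0738), nor did that between skn-1 RNAi and control RNAi mutants (0.20 ± 0.15, adjusted p = 0.353). With quantile normalization (-0.57) and with median centring (-0.55), cyp-33E2 was called lower in skn-1 RNAi mutants than in N2, as it was without the intensity trend (-0.50). Of the 6 pharyngeal markers, 1 was higher and 0 were lower in control RNAi mutants than in N2, beside 18.9% and 10.2% of all genes. In skn-1 RNAi mutants against N2, 0 of these markers were higher and 1 was lower, beside 4.12% and 2.55% of all genes. Their part in the cyp-33E2 values was not tested. cyp-33C4 had signals of 56.7, 70.2 and 66.1 in skn-1 RNAi mutants, 54.4, 52.3, 56.4 and 67.3 in control RNAi mutants, and 96.9, 88.3 and 91.4 in N2. N2 was again above both mutant groups, which overlapped. The change was -0.54 ± 0.16, adjusted p = 0.0164 in control RNAi mutants against N2 and -0.42 ± 0.17, adjusted p = 0.164 in skn-1 RNAi mutants against N2. The cyp-33C4 call of control RNAi mutants over N2 ended without N2 replicate 1 (log2 -0.51). Among the 7 other tested cyp-33 genes, cyp-33A1 averaged 331 ± 17.3 in skn-1 RNAi mutants, 385 ± 22.3 in control RNAi mutants and 312 ± 28.4 in N2 (SD), and cyp-33C8 260.1 ± 39.5 in skn-1 RNAi mutants, 251 ± 49.4 in control RNAi mutants and 325 ± 15.1 in N2. Neither was called in any comparison as fitted, with log2 changes in control RNAi mutants against N2 of 0.29 for cyp-33A1 and -0.37 for cyp-33C8. In that comparison cyp-33C8 was called lower with quantile normalization (-0.52), with median centring (-0.57) and without control RNAi replicate 3 (-0.46).

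cyp-36A1 acts in the pathway of the oxygen sensor EGL-9 and the hypoxia factor HIF-1, through the nuclear receptor NHR-46. Its signals were 105, 89.005 and 129 in skn-1 RNAi mutants, 141, 117, 113 and 168 in control RNAi mutants, and 204, 209 and 206 in N2. The N2 arrays lay within 204 to 209, above all mutant arrays, and the mutant groups overlapped. It was lower than N2 both in control RNAi mutants (log2 change -0.56 ± 0.16, adjusted p = 0.0146) and in skn-1 RNAi mutants (-0.84 ± 0.17, adjusted p = 0.00594), and was not called between the mutant groups (-0.28 ± 0.16, adjusted p = 0.222). In the same pathway, cysl-1, which encodes a cysteine synthase-like inhibitor of EGL-9, averaged 735 ± 35.4 in skn-1 RNAi mutants, 1345 ± 87.4 in control RNAi mutants and 909 ± 197 in N2 (SD). It rose in control RNAi mutants against N2 (0.58 ± 0.14, adjusted p = 0.00515, and 0.38 with median centring) and fell in skn-1 RNAi against control RNAi mutants (-0.85 ± 0.14, adjusted p = 3.03e-04). nhr-46 had log2 changes of 0.12, 0.06 and 0.18 in control RNAi mutants against N2, skn-1 RNAi against control RNAi mutants and skn-1 RNAi mutants against N2, and was called in 0 of them.

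The cyp-29, cyp-31, cyp-32, cyp-37 and cyp-42 genes are related to vertebrate P450s of the CYP4 type, which oxidise fatty acids and other lipids. cyp-37B1 had signals of 60.6, 63.6 and 45.7 in skn-1 RNAi mutants, 90.6, 121, 141 and 101 in control RNAi mutants, and 40.4, 54.6 and 42.3 in N2. Every control RNAi mutant array lay above the other groups, which overlapped. It rose in control RNAi mutants against N2 (log2 change 1.03 ± 0.18, adjusted p = 4.87e-04) and fell in skn-1 RNAi against control RNAi mutants (-0.80 ± 0.18, adjusted p = 0.00439), with 0.22 ± 0.19, adjusted p = 0.604 between skn-1 RNAi mutants and N2. The related cyp-37A1 averaged 274 ± 50.1 in skn-1 RNAi mutants, 287 ± 37.04 in control RNAi mutants and 324 ± 41.3 in N2 (SD) and was called in 0 comparisons, its log2 changes lying between -0.23 and -0.07.

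cyp-32B1 had signals of 48.2, 66.7 and 69.6 in skn-1 RNAi mutants, 106, 130.2, 112 and 113 in control RNAi mutants, and 79.9, 64.4 and 86.3 in N2. Control RNAi mutants were above both other groups. Its log2 change was -0.75 ± 0.16, adjusted p = 0.00373 in skn-1 RNAi against control RNAi mutants and 0.49 ± 0.16, adjusted p = 0.0334 in control RNAi mutants against N2. The cyp-32B1 call of control RNAi mutants over N2 ended without any 1 of control RNAi replicates 2, 3 and 4 and N2 replicates 1 and 2 (log2 0.39 to 0.52), and with no brightness filter, with quantile normalization and with median centring (log2 0.29 to 0.49). cyp-32A1 had signals of 147, 259 and 167 in skn-1 RNAi mutants, 239.6, 317, 309.9 and 238 in control RNAi mutants, and 159.6, 180.5 and 209 in N2. Control RNAi mutants were above N2 on every array but overlapped the skn-1 RNAi mutants, whose replicate 2 was high. Its log2 change was 0.54 ± 0.18, adjusted p = 0.033 in control RNAi mutants against N2 and -0.52 ± 0.18, adjusted p = 0.0474 in skn-1 RNAi against control RNAi mutants. The cyp-32A1 call of control RNAi mutants over N2 ended without any 1 of control RNAi replicates 2 and 3 and N2 replicates 1 and 2 (log2 0.46 to 0.53), and with no brightness filter, with quantile normalization and with median centring (log2 0.34 to 0.54). The cyp-32A1 call of skn-1 RNAi over control RNAi mutants ended without any 1 of skn-1 RNAi replicates 1 and 3, control RNAi replicates 2 and 3 and N2 replicate 2 (log2 -0.36 to -0.52), and with no brightness filter, with quantile normalization, with median centring, without the intensity trend, with only the compared groups in the fit and on a probe set without a suffix (log2 -0.37 to -0.52). On a dimmer probe set of cyp-32A1, the rise against N2 was 0.55 (adjusted p = 0.0345), and the difference between skn-1 RNAi and control RNAi mutants was -0.41 and not called.

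cyp-31A2 and cyp-31A3 act with the reductase EMB-8 in forming the lipid layer of the eggshell. They were called in 0 comparisons. cyp-31A2 averaged 916 ± 100.1 in skn-1 RNAi mutants, 797 ± 56.4 in control RNAi mutants and 932 ± 8.69 in N2 (SD), and cyp-31A3 482 ± 45.3 in skn-1 RNAi mutants, 390.2 ± 24.9 in control RNAi mutants and 486 ± 43.9 in N2. Their log2 changes in control RNAi mutants against N2 were -0.22 for cyp-31A2 and -0.30 for cyp-31A3. Both were called lower in that comparison with median centring (-0.42 and -0.50), and cyp-31A3 also with quantile normalization (-0.37). With median centring both were also called higher in skn-1 RNAi than in control RNAi mutants (0.34 and 0.44). cyp-31A5 had signals of 859.5, 766 and 915 in skn-1 RNAi mutants, 321, 699, 563 and 390.0 in control RNAi mutants, and 1153, 1117 and 697 in N2. The skn-1 RNAi arrays lay above the control RNAi mutant arrays, which were low except that replicate 2 reached the lowest N2 array. It fell in control RNAi mutants against N2 (log2 change -1.004 ± 0.22, adjusted p = 0.00304) and rose in skn-1 RNAi against control RNAi mutants (0.82 ± 0.22, adjusted p = 0.0144). The cyp-31A5 call of skn-1 RNAi over control RNAi mutants ended without skn-1 RNAi replicate 3 (log2 0.76).

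cyp-31A1, which RefSeq lists as a pseudogene, moved the other way. Its signals were 183, 169.5 and 173 in skn-1 RNAi mutants, 282, 225, 237 and 235 in control RNAi mutants, and 173, 189.5 and 192 in N2. Control RNAi mutants were the high group on every array. The log2 change of cyp-31A1 was 0.37 ± 0.13, adjusted p = 0.0426 in control RNAi mutants against N2 and -0.44 ± 0.13, adjusted p = 0.0218 in skn-1 RNAi against control RNAi mutants. The cyp-31A1 call of control RNAi mutants over N2 ended without any 1 of skn-1 RNAi replicates 1, 2 and 3, control RNAi replicates 1, 3 and 4 and N2 replicates 1, 2 and 3 (log2 0.30 to 0.39), and with no brightness filter, with quantile normalization, with median centring and with only the compared groups in the fit (log2 0.17 to 0.37). The cyp-31A1 call of skn-1 RNAi over control RNAi mutants ended without any 1 of skn-1 RNAi replicates 2 and 3 and control RNAi replicate 1 (log2 -0.37 to -0.43), and with quantile normalization and with median centring (log2 -0.29 to -0.33). The summed oocyte markers given above were lower in control RNAi mutants than in both other groups. So were the cyp-31A3 signals, at 361 to 416 in control RNAi mutants, 453 to 534 in skn-1 RNAi mutants and 438 to 524 in N2. The low cyp-31A5 signals of control RNAi mutants overlapped N2, those of cyp-31A2 overlapped skn-1 RNAi mutants, and those of cyp-31A1 were higher. The part of germ-line makeup in the cyp-31A signals was not tested. The cyp-31A genes are close relatives, and sharing of signal between their probe sets was not tested.

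cyp-29A3 makes eicosanoids from polyunsaturated fatty acids. Its signals were 22.6, 38.3 and 8.78 in skn-1 RNAi mutants, 52.2, 47.05, 25.7 and 23.6 in control RNAi mutants, and 60.6, 72.6 and 64.5 in N2. N2 lay above both mutant groups, which overlapped. It was lower in skn-1 RNAi mutants than in N2 (log2 change -1.07 ± 0.27, adjusted p = 0.0241), and the differences of control RNAi mutants from N2 (-0.63 ± 0.25, adjusted p = 0.0704) and of skn-1 RNAi from control RNAi mutants (-0.44 ± 0.25, adjusted p = 0.226) did not pass the test. The cyp-29A3 call of skn-1 RNAi mutants over N2 ended without any 1 of skn-1 RNAi replicates 1 and 3 and N2 replicates 1, 2 and 3 (log2 -0.80 to -1.11), and with no brightness filter (log2 -1.07). The difference of control RNAi mutants from N2 was called lower with quantile normalization (-0.79), with median centring (-0.83), with only the compared groups in the fit and without skn-1 RNAi replicate 3 (-0.63 each), and without control RNAi replicate 1 (-0.76). Between skn-1 RNAi mutants and N2 the change was -1.68 with a pseudocount of 1 and -0.68 with a pseudocount of 50. cyp-29A2 averaged 320.0 ± 4.74 in skn-1 RNAi mutants, 379 ± 113 in control RNAi mutants and 390.3 ± 59.9 in N2 (SD) and was called in 0 comparisons, with log2 changes between -0.26 and -0.08. cyp-42A1 was also not called, with -0.44 ± 0.18, adjusted p = 0.0858 in skn-1 RNAi against control RNAi mutants.

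cyp-23A1, the single gene of its subfamily, showed the largest rise of the tested members in control RNAi mutants against N2. Its signals were 45.5, 48.9 and 26.03 in skn-1 RNAi mutants, 70.1, 49.99, 64.7 and 68.7 in control RNAi mutants, and 26.005, 23.9 and 7.86 in N2. On this probe set control RNAi mutants were highest, N2 lowest, and skn-1 RNAi mutants between them, with replicate 3 level with the highest N2 array. The log2 change was 1.14 ± 0.22, adjusted p = 0.0013 in control RNAi mutants against N2, -0.49 ± 0.22, adjusted p = 0.121 in skn-1 RNAi against control RNAi mutants, and 0.64 ± 0.24, adjusted p = 0.13 in skn-1 RNAi mutants against N2. Its size against N2 depended on the pseudocount, at 1.82 with 1 and 0.72 with 50. An untested probe set of cyp-23A1 averaged 18.9 ± 2.51 in skn-1 RNAi mutants, 39.9 ± 10.5 in control RNAi mutants and 20.6 ± 8.004 in N2 (SD). There the skn-1 RNAi mutants did not lie between the other groups. cyp-44A1, the P450 of the mitochondrial type, averaged 605 ± 41.8 in skn-1 RNAi mutants, 618 ± 47.6 in control RNAi mutants and 726 ± 87.2 in N2 (SD) and was called in 0 comparisons, with log2 changes of -0.22, -0.03 and -0.25 in control RNAi mutants against N2, skn-1 RNAi against control RNAi mutants and skn-1 RNAi mutants against N2. With median centring cyp-44A1 was called lower in control RNAi mutants than in N2 (-0.42).

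**Figure D2:**
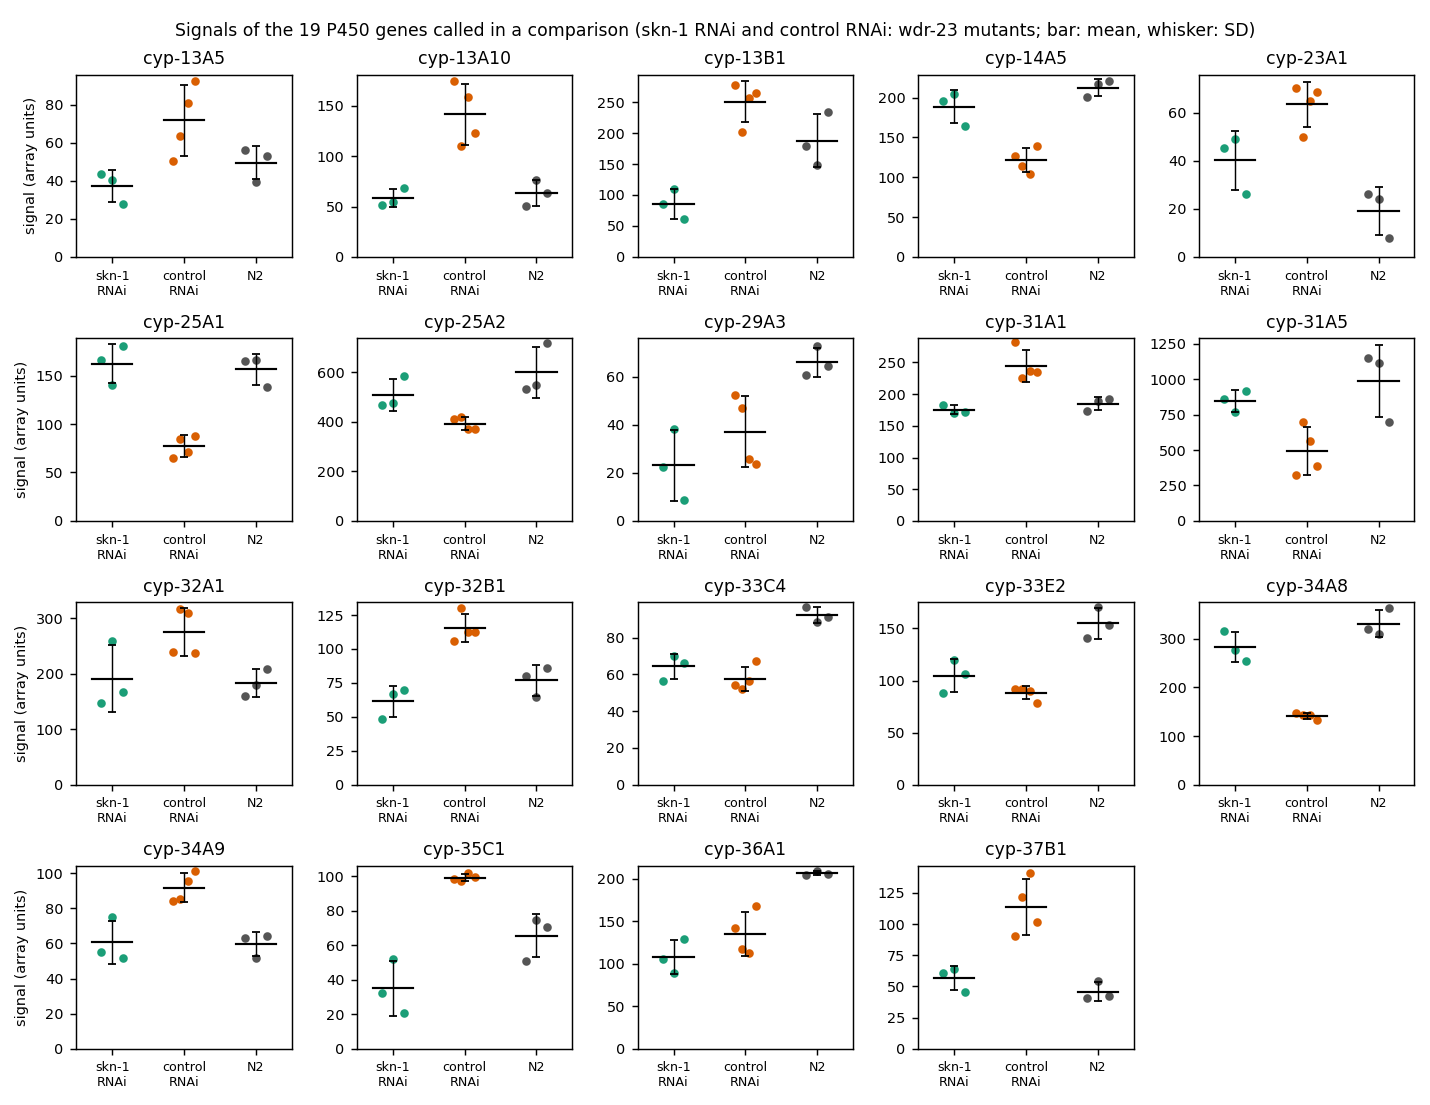
Signal in array units, on a linear axis from 0, of the 19 P450 genes called in a comparison, with skn-1 RNAi mutants left, control RNAi mutants in the middle and N2 right; points are arrays, bars group means and whiskers SDs. For cyp-34A8 the control RNAi mutants sit at 132 to 148, below the other groups, and for cyp-13B1 the skn-1 RNAi mutants sit at 61.2 to 110.0, below the other groups.

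The 23 tested P450 genes called in 0 comparisons had log2 changes between -0.37 and 0.37 in control RNAi mutants against N2, between -0.51 and 0.39 in skn-1 RNAi against control RNAi mutants, and between -0.56 and 0.32 in skn-1 RNAi mutants against N2. Of the 31 untested genes, group means ran from 1.03 to 53.1, and for 12 of them every group mean was at or below the pseudocount of 19. Subfamilies with 0 tested members were cyp-33B, cyp-33D, cyp-35B and cyp-35D. Around the filter, which stood at a mean log2 value of 5.71, cyp-34A7 (5.72), cyp-29A3 (5.83) and cyp-13A1 (5.84) lay just inside, and cyp-14A2 (5.707), cyp-35A5 (5.59) and cyp-14A3 (5.55) just outside. Among the untested genes, cyp-34A2 had signals of 25.4, 28.8 and 7.87 in skn-1 RNAi mutants, 37.6, 61.97, 53.4 and 59.4 in control RNAi mutants, and 7.04, 3.53 and 2.74 in N2. cyp-35A4 had signals of 2.07, 4.26 and 3.22 in skn-1 RNAi mutants, 16.8, 31.3, 30.9 and 22.5 in control RNAi mutants, and 3.202, 3.89 and 12.3 in N2. Control RNAi mutants were the high group for both. With no brightness filter, cyp-34A2 was called higher in control RNAi mutants than in N2 (log2 change 1.61) and lower in skn-1 RNAi than in control RNAi mutants (-0.89), and cyp-35A4 likewise (0.81 and -0.99). Probe sets assigned to 2 P450 genes each were left out of these counts. There were 2 of them, 1 too dim to test and 1 from the cyp-25A group, whose log2 change was 0.34 (adjusted p = 0.109) in control RNAi mutants against N2.

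**Figure D3:**
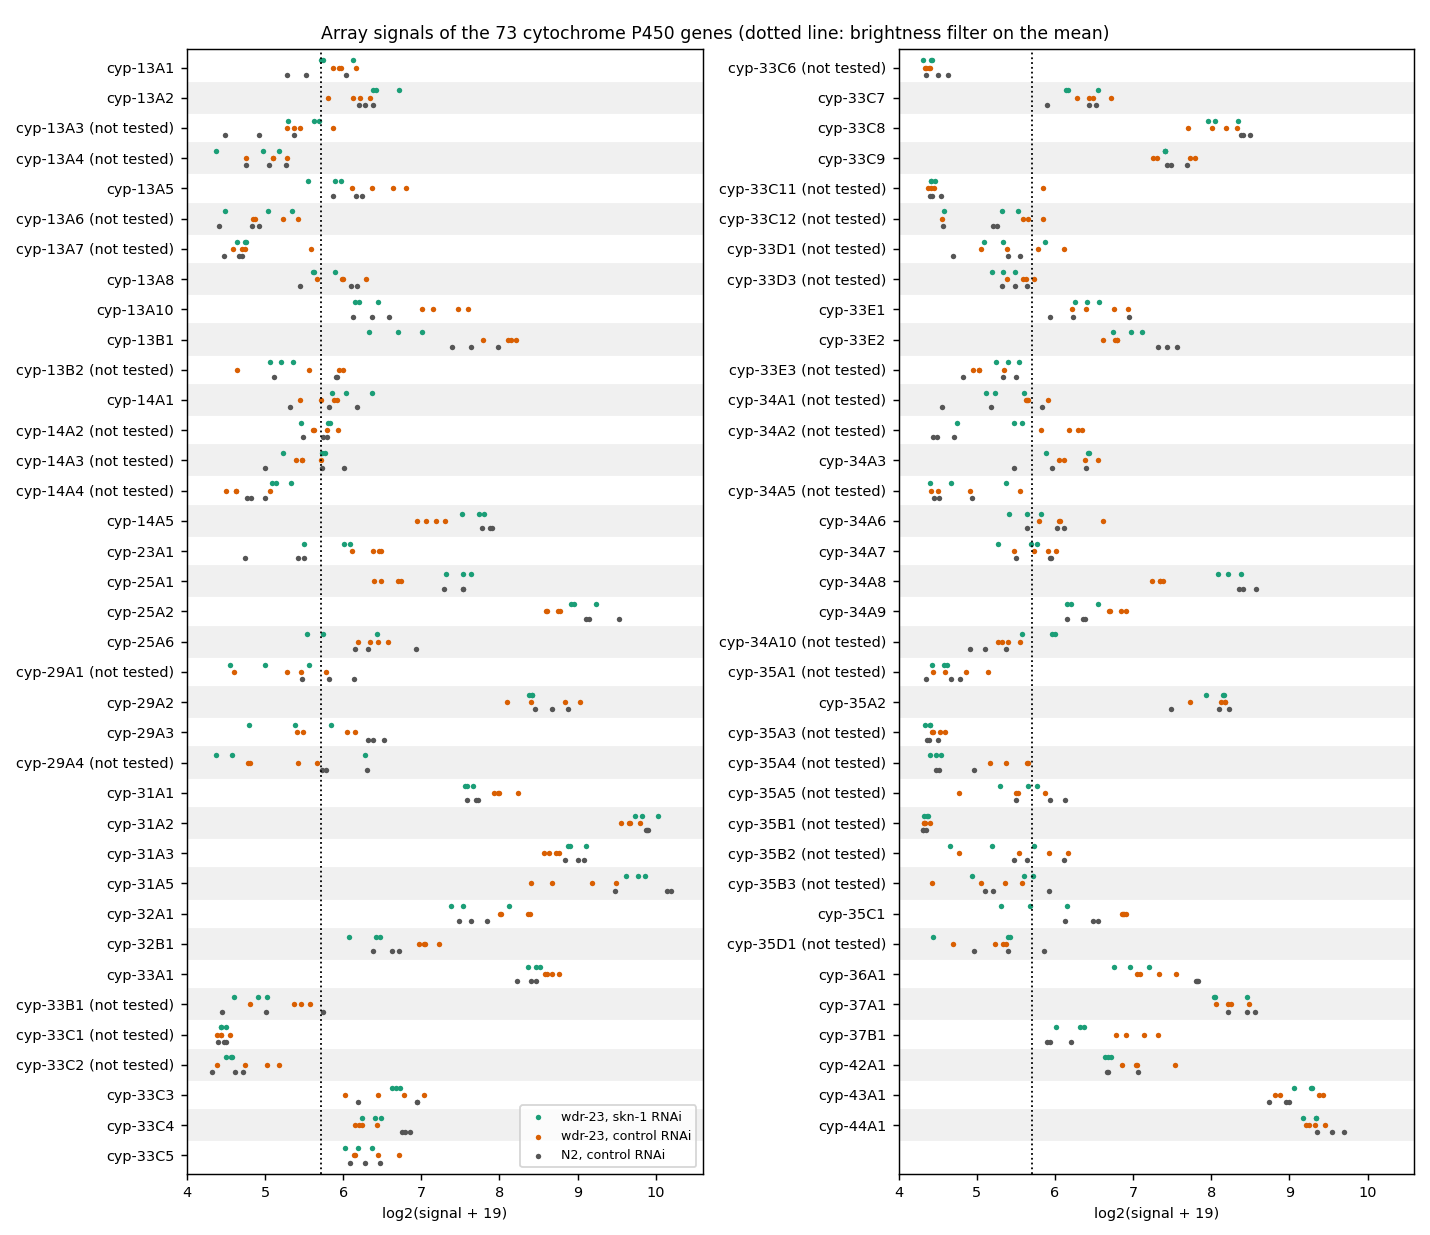
Log2(signal + 19) on each array (points) of the 73 P450 genes, with skn-1 RNAi mutants in green, control RNAi mutants in orange and N2 in grey; the dotted line is the brightness filter at 5.71, applied to the mean. The 31 untested genes have their means left of the line, and some, such as cyp-14A2, have points on both sides of it. Levels of different probe sets are not comparable.

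Genes that serve P450 enzymes were read from lists written for this family. The lists were chosen with earlier results of these data known, so counts over them are descriptions and not tests. Of the 3 electron donors, emb-8, the P450 reductase, averaged 555 ± 74.4 in skn-1 RNAi mutants, 487 ± 80.03 in control RNAi mutants and 594 ± 83.4 in N2 (SD) and was called in 0 comparisons, with log2 changes of -0.28, 0.19 and -0.09 in control RNAi mutants against N2, skn-1 RNAi against control RNAi mutants and skn-1 RNAi mutants against N2. With median centring emb-8 was called lower in control RNAi mutants than in N2 (-0.48). The cytochrome b5 genes moved in opposite directions in control RNAi mutants against N2. cytb-5.1 averaged 1954 ± 282 in skn-1 RNAi mutants, 1674 ± 131 in control RNAi mutants and 2459 ± 127 in N2 (SD) and fell (-0.55 ± 0.11, adjusted p = 0.00196), while cytb-5.2 averaged 4168 ± 414 in skn-1 RNAi mutants, 5341 ± 679 in control RNAi mutants and 3816 ± 25.3 in N2 and rose (0.47 ± 0.11, adjusted p = 0.00446, and 0.27, not called, with median centring). cytb-5.2 fell in skn-1 RNAi against control RNAi mutants (-0.35 ± 0.11, adjusted p = 0.0299), where cytb-5.1 was called higher with median centring (0.36). The cytb-5.2 call of skn-1 RNAi over control RNAi mutants ended without any 1 of skn-1 RNAi replicates 1 and 2 and control RNAi replicates 2, 3 and 4 (log2 -0.27 to -0.38), and with median centring and without the intensity trend (log2 -0.21 to -0.35).

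All 5 heme transport genes on the array, of 8 listed, rose in control RNAi mutants against N2, beside the 18.9% of all genes. Because the list was chosen with earlier results of these data known, this count does not test for an excess. They were hrg-3, which carries heme from the intestine to embryos (1.16 ± 0.20, adjusted p = 4.78e-04), hrg-7, a secreted protease-like signal of heme status (1.03 ± 0.09, adjusted p = 4.11e-07), hrg-1 (1.02 ± 0.14, adjusted p = 3.23e-05) and hrg-4 (0.80 ± 0.16, adjusted p = 0.0016), heme importers of the intestine, and mrp-5, a heme exporter (0.52 ± 0.10, adjusted p = 0.00179, and 0.31 with median centring). hrg-7 averaged 4129 ± 232 in skn-1 RNAi mutants, 4263 ± 155 in control RNAi mutants and 2086 ± 147 in N2 (SD), and hrg-1 447 ± 63.2 in skn-1 RNAi mutants, 741 ± 48.6 in control RNAi mutants and 358 ± 55.9 in N2. Between skn-1 RNAi and control RNAi mutants, 0 rose and 2 fell, hrg-1 (-0.71 ± 0.14, adjusted p = 0.00137) and hrg-3 (-0.80 ± 0.20, adjusted p = 0.00964), and hrg-4 was called higher there with median centring (0.47). Among all genes, 9.94% were higher and 13.1% lower in that comparison. Against N2, skn-1 RNAi mutants had 3 higher and 0 lower, beside 4.12% and 2.55% of all genes. The higher ones were hrg-4 (1.12 ± 0.17, adjusted p = 5.21e-04), hrg-7 (0.98 ± 0.10, adjusted p = 7.44e-06) and mrp-5 (0.39 ± 0.11, adjusted p = 0.0466). The hrg-3 call of skn-1 RNAi over control RNAi mutants ended without skn-1 RNAi replicate 1 (log2 -0.70). The mrp-5 call of skn-1 RNAi mutants over N2 ended without any 1 of skn-1 RNAi replicates 1, 2 and 3, control RNAi replicate 3 and N2 replicates 1, 2 and 3 (log2 0.33 to 0.43), and with median centring, without the intensity trend and on a probe set without a suffix (log2 0.34 to 0.39).

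daf-9, the P450 that makes dafachronic acid, the steroid ligand of the nuclear receptor DAF-12, is outside the cyp symbols. It averaged 98.7 ± 9.11 in skn-1 RNAi mutants, 129 ± 13.3 in control RNAi mutants and 85.8 ± 4.57 in N2 (SD) and was higher in control RNAi mutants than in N2 (0.50 ± 0.14, adjusted p = 0.0171). The daf-9 call of control RNAi mutants over N2 ended without N2 replicate 3 (log2 0.46), and with quantile normalization and with median centring (log2 0.29 to 0.30). The differences of skn-1 RNAi mutants from control RNAi mutants (-0.33 ± 0.14, adjusted p = 0.107) and from N2 (0.17 ± 0.15, adjusted p = 0.637) did not pass the test. Of 8 other genes of this pathway, 7 were tested, and 4 rose and 1 fell in control RNAi mutants against N2, beside 18.9% higher and 10.2% lower among all genes. The risen genes were strm-1, a sterol methyltransferase that limits the hormone's precursors (1.16 ± 0.16, adjusted p = 3.45e-05), dhs-16, a dehydrogenase of its synthesis (0.89 ± 0.19, adjusted p = 0.0024), the receptor gene daf-12 (0.69 ± 0.12, adjusted p = 4.43e-04) and the cholesterol transporter gene ncr-1 (0.50 ± 0.14, adjusted p = 0.0147). daf-36, an oxygenase of an early step, fell (-0.52 ± 0.13, adjusted p = 0.00924).

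In skn-1 RNAi against control RNAi mutants, 0 of the 7 pathway genes rose and 3 fell, namely ncr-1 (-0.85 ± 0.14, adjusted p = 4.16e-04), dhs-16 (-0.66 ± 0.19, adjusted p = 0.0192) and daf-12 (-0.64 ± 0.12, adjusted p = 0.00112), beside 9.94% higher and 13.1% lower among all genes. Against N2, skn-1 RNAi mutants had 1 higher, strm-1 (0.86 ± 0.17, adjusted p = 0.00428), and 1 lower, daf-36 (-0.61 ± 0.14, adjusted p = 0.0174), beside 4.12% and 2.55% of all genes. ncr-2 was called higher in skn-1 RNAi mutants than in N2 without N2 replicate 3 (0.69). The ncr-1 call of control RNAi mutants over N2 ended without N2 replicate 1 (log2 0.38), and with median centring (log2 0.30). The daf-36 call of control RNAi mutants over N2 ended without N2 replicate 1 (log2 -0.42). The dhs-16 call of skn-1 RNAi over control RNAi mutants ended without any 1 of skn-1 RNAi replicates 1 and 2 and control RNAi replicate 4 (log2 -0.59 to -0.64), and with quantile normalization (log2 -0.51). The daf-36 call of skn-1 RNAi mutants over N2 ended without any 1 of skn-1 RNAi replicates 1, 2 and 3 and N2 replicate 1 (log2 -0.50 to -0.62).

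Flavin monooxygenases oxidise foreign compounds beside the P450s. Of 5 tested, 2 rose and 1 fell in control RNAi mutants against N2, beside 18.9% and 10.2% of all genes. fmo-2, known for induction by hypoxia signalling and starvation, averaged 101 ± 19.1 in skn-1 RNAi mutants, 34.1 ± 20.9 in control RNAi mutants and 161 ± 3.32 in N2 (SD). It fell in control RNAi mutants against N2 (-1.86 ± 0.26, adjusted p = 5.91e-05) and rose in skn-1 RNAi against control RNAi mutants (1.26 ± 0.26, adjusted p = 0.00269). fmo-1 averaged 194 ± 2.495 in skn-1 RNAi mutants, 312 ± 27.6 in control RNAi mutants and 156 ± 26.1 in N2 (SD). It rose in control RNAi mutants against N2 (0.93 ± 0.14, adjusted p = 1.08e-04) and fell in skn-1 RNAi against control RNAi mutants (-0.63 ± 0.14, adjusted p = 0.00369), and on its probe set without a suffix the changes were 0.52 and -0.45, with the fall not called. fmo-3 was also higher in control RNAi mutants than in N2 (0.47 ± 0.15, adjusted p = 0.0278). The fmo-3 call of control RNAi mutants over N2 ended without any 1 of control RNAi replicates 1 and 2 and N2 replicates 1 and 3 (log2 0.38 to 0.47), and with quantile normalization and with median centring (log2 0.27 to 0.32). In skn-1 RNAi mutants against N2, 0 of the 5 were called, with fmo-4 called lower with median centring (-0.54), with only the compared groups in the fit and without control RNAi replicate 2 (-0.48 each), and fmo-2 with only the compared groups in the fit (-0.60). In control RNAi mutants against N2, fmo-4 was also called lower with median centring (-0.46), and fmo-5 higher without the intensity trend (0.37) and without control RNAi replicate 2 (0.43).

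Among the 4 desaturases that supply the polyunsaturated fatty acids on which eicosanoid-forming P450s act, fat-3 was the only 1 called in these comparisons as fitted. In control RNAi mutants against N2, median centring called fat-1 (-0.49), fat-2 (-0.38) and fat-4 (-0.27) lower, and fat-1 was also called lower with the dimmest 50% of probe sets left out (-0.29), without N2 replicate 3 (-0.38) and without control RNAi replicate 3 (-0.36). fat-3 averaged 1969.7 ± 182 in skn-1 RNAi mutants, 3144 ± 418 in control RNAi mutants and 2394 ± 362 in N2 (SD), rose in control RNAi mutants against N2 (0.39 ± 0.13, adjusted p = 0.0318) and fell in skn-1 RNAi against control RNAi mutants (-0.66 ± 0.13, adjusted p = 0.00156). The fat-3 call of control RNAi mutants over N2 ended without any 1 of control RNAi replicates 1 and 4 and N2 replicates 1 and 2 (log2 0.27 to 0.41), and with no brightness filter, with median centring and without the intensity trend (log2 0.19 to 0.39). The epoxide hydrolases ceeh-1 and ceeh-2, which break down P450 products of these fatty acids, were called in 0 comparisons. Of 7 tested receptors and sensors linked to P450 expression, cysl-1, described above, was called in both comparisons with control RNAi mutants, and aha-1, a partner of the aryl hydrocarbon receptor, fell in skn-1 RNAi against control RNAi mutants (-0.39 ± 0.13, adjusted p = 0.0403). The aha-1 call of skn-1 RNAi over control RNAi mutants ended without any 1 of skn-1 RNAi replicates 1 and 2, control RNAi replicates 1, 3 and 4 and N2 replicate 2 (log2 -0.26 to -0.41), and with no brightness filter, with quantile normalization, with median centring and with only the compared groups in the fit (log2 -0.24 to -0.39). The nuclear receptor genes nhr-8, nhr-49, nhr-86 and nhr-176 were called in 0 comparisons. In control RNAi mutants against N2, nhr-8 was called lower with quantile normalization (-0.32) and median centring (-0.44), and nhr-49 with median centring (-0.41). nhr-176 was called higher in skn-1 RNAi than in control RNAi mutants with quantile normalization (0.68), with median centring (0.70) and without skn-1 RNAi replicate 1 (0.82), and higher than in N2 without that array (1.02).

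**Figure D4:**
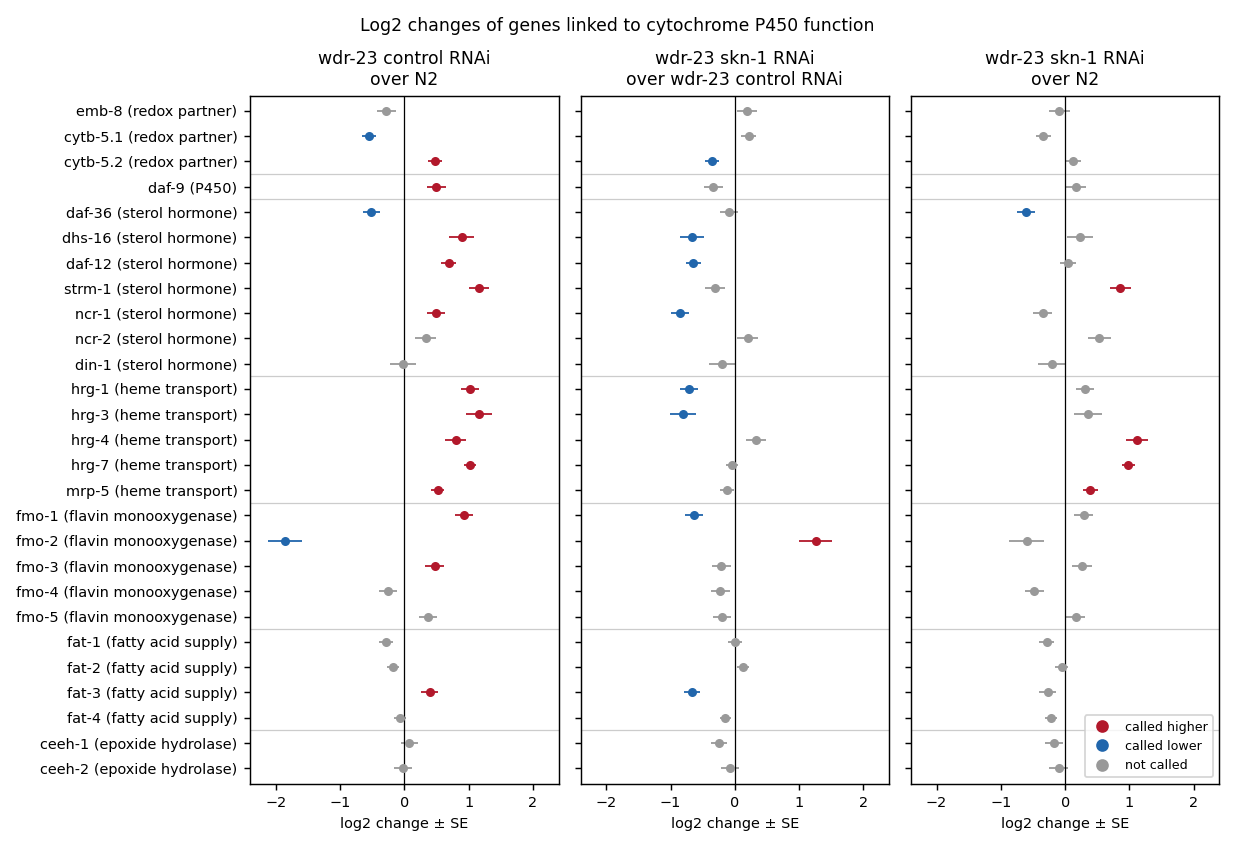
Log2 changes (points) with SE (lines) of genes linked to P450 function, by list, in control RNAi mutants over N2 (left), skn-1 RNAi over control RNAi mutants (middle) and skn-1 RNAi mutants over N2 (right); red is called higher, blue called lower and grey not called. All 5 heme transport genes are red in the left panel, and fmo-2 lies farthest to the left there, at -1.86.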

How the data were processed

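Whole-animal RNA of 3 groups was measured on 10 one-colour Affymetrix arrays. The files hold deposited intensity values made with MAS5, per the submitters' processing notes, on a linear scale, and the MAS5 version is not given in the sources used here. Trimming 2% of the values at each end gave array means of 500.11 to 500.14, so the authors' values had been scaled to one level, and no further scaling was applied. Of 22625 probe sets, 77 controls were left out, 20766 name 1 gene, 887 name several and 895 none. All 73 P450 symbols matched RefSeq.

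The pseudocount of 19 is the rounded 20th percentile of the signals. A filter dropped the dimmest 30% of probe sets, judged on their mean log2 value, and kept 15783. The two-sided tests came from limma 3.58.1 (lmFit, then eBayes with trend, 16.4 total df) under R 4.3.3, with all 3 groups in one fit and Benjamini-Hochberg adjustment over all tested probe sets of a comparison. Figures used python 3.11.15 with matplotlib 3.10.9. Labels call the arrays biological replicates, nothing more is said of separate cultures, and the small number of arrays limits the precision. No pair of arrays was identical. The labels do not say whether the replicate numbers pair the arrays, and the main fit used no pairing. Scan dates, batches and detection calls were not used here.

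Values on every array are given for members called in a comparison. Other members are named when among the 10 brightest or best known, and genes of the lists when called, together with emb-8, nhr-46 and the uncalled members used for comparison. cyp-34A2 and cyp-35A4 were singled out after their values were seen. The members and lists were chosen with earlier results of these data known. cyp-13A12 was not analysed here. Alternatives were other pseudocounts, filters, scalings, probe set choices, fits and the omission of each array.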

Additional observations from a re-analysis of the deposited data

Results flagged for a closer look

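Within the 4 control RNAi mutant arrays, 1 array stood far from the others for 2 of the 42 P450 genes examined, and chance flags about 1 in 20 such groups. For cyp-33E2, replicate 4 was at 78.9 and the other arrays at 90.3 to 92.2. For cyp-35A2, replicate 4 was at 192 and the other arrays at 260.3 to 271. In both cases the array was the low one. The cyp-33E2 fall in control RNAi mutants against N2 was called with and without this array, and cyp-35A2 was called in neither case.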

How the results depend on the processing

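The number of P450 genes higher in control RNAi mutants than in N2, 7 as reported, was 2 with the lowest 50% of probe sets left out, 3 with quantile normalization, 3 with median centring, 4 without suffixed probe sets, and 3 to 7 when single arrays were left out. With no brightness filter it was 5, of which 3 were among the 7, beside 11.3% of all probe sets. The added genes were cyp-34A2 and cyp-35A4. The number lower, 8 as reported, was 5 with the lowest 50% left out and 13 with median centring. Between skn-1 RNAi and control RNAi mutants, the 4 higher genes became 8 with median centring. The 9 lower genes became 3 with the lowest 50% left out, 5 with quantile normalization, 5 with median centring, 4 without suffixed probe sets, and 5 to 9 when single arrays were left out. With no brightness filter 9 were lower, of which 7 were the same genes, beside 7.74% of all probe sets. Between skn-1 RNAi mutants and N2, the 3 lower genes became 5 with median centring. Calls over all probe sets moved too. With the lowest 50% left out, 18% of them were higher and 13.3% lower in control RNAi mutants than in N2. Between skn-1 RNAi and control RNAi mutants, 13.6% were then lower. Without suffixed probe sets the shares were 18.4%, 8.92% and 12.7%, in that order. Shares under the other scalings are given above. Without N2 replicate 1, 12.4% of them rather than 17.4% were higher in control RNAi mutants than in N2. Without skn-1 RNAi replicate 3, 9.4% rather than 12.6% were lower in skn-1 RNAi than in control RNAi mutants. With the lowest 50% left out, 18 P450 genes were tested and with no suffixed probe sets 32, so fewer could be called. The cause of the other moves was not tested.

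With the replicate number as a block, 4 P450 genes were higher and 8 lower in control RNAi mutants than in N2, 4 higher and 7 lower in skn-1 RNAi than in control RNAi mutants, and 0 higher and 3 lower in skn-1 RNAi mutants than in N2. Of all probe sets, 15.7% and 8.52%, 8% and 10.5%, and 4.04% and 2.4% were higher and lower, in the same order. Only control RNAi mutants had a replicate 4, so the block took that array out of their comparisons. Effects of pairing and of leaving out that array thus cannot be told apart here. The block left uncalled cyp-31A1, cyp-32B1, cyp-34A9 and fat-3 in control RNAi mutants against N2, cyp-13A5, cyp-34A9, aha-1 and dhs-16 in skn-1 RNAi against control RNAi mutants, and mrp-5 in skn-1 RNAi mutants against N2. The labels state no pairing by these numbers. After group means were removed, same-numbered arrays correlated at -0.16 to 0.18, against -0.17 to 0.17 for differently numbered arrays. The ranges show no clear sign of pairing, and so few arrays cannot exclude it.

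Of 31 P450 calls, 20 held under every alternative that tested them, and 0 turned direction. Of 34 calls of other listed genes, 21 held under every alternative that tested them, and 0 turned direction. With 3 or 4 arrays a group and dim signals for many members, depth of signal over background limits the dim members, whose log2 changes are understated near the pseudocount. Suffixed probe sets, which are not specific to 1 transcript, carry 8 of the 19 called genes.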
